A study of Mus musculus with 12 samples.

Results

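The 10 genes described here encode matricellular and related matrix glycoproteins (Postn, Spp1, Thbs1, Thbs2, Tnc, Fn1 and Sparc) and small leucine-rich proteoglycans (Dcn, Lum and Bgn). They were chosen by symbol, 1 gene ID each, from the 78275 gene IDs of the table, and all 10 passed the filter on low counts. C2C12 is a mouse myoblast line that fuses into myotubes when serum is withdrawn. With Lipofectamine 3000, cells received either a non-targeting control siRNA or an siRNA that targets Zfp143, which encodes ZNF143, a transcription factor with zinc fingers. All cells grew in medium with 10% fetal bovine serum. At 24 hours from transfection a set was taken as uninduced, and the rest were switched to 1% horse serum, renewed daily, until day 5. The 4 groups hold 3 libraries of polyadenylated RNA each, 12 in all, from this one line and labelled batch 1. Nothing in the labels tells whether replicates were grown as separate cultures, and p-values therefore cover only the spread of these libraries, which may be technical. In such bulk RNA, fewer cells of a type and less RNA per cell cannot be told apart.

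Matricellular proteins are secreted into the extracellular matrix, where they act mainly on cell behaviour by binding integrins, other receptors and growth factors rather than as structural fibres. Small leucine-rich proteoglycans have a core of leucine-rich repeats. Many of them carry glycosaminoglycan chains and bind fibrillar collagen, and some can hold TGF-beta. In skeletal muscle both groups belong to the matrix around fibres and satellite cells, and several of them rise in regenerating or fibrotic muscle.

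The targeted gene was read first. Zfp143 stood at 23.2, 27.8 and 39.8 CPM (counts scaled to a common library size by TMM factors) in the uninduced control libraries and at 12.2, 11.9 and 10.1 CPM with the Zfp143 siRNA. Its log2 fold change in uninduced cells was -1.41 (SE 0.183, adjusted p = 6.12e-05). On day 5 its CPM overlapped, at 19.7, 19.3 and 19.25 against 14.7, 16.8 and 19.7, with a log2 difference of -0.18 (SE 0.181, adjusted p = 0.646). The day 5 comparison is therefore between cells that received different siRNAs and did not differ in Zfp143 past the test.

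Total estimated counts ranged from 13520906 to 19068323, the lowest in replicate 1 of the induced Zfp143 siRNA group. Mitochondrially encoded genes took 6.02% of the counts in replicate 3 of the uninduced control group, against 2.63% and 2.90% in the other two. That library also stood apart for the 10 genes. The median absolute difference of their log2 CPM from the mean of the other two libraries was 0.72 there, and at most 0.364 in any other library. Dcn was higher there by 1.10, Postn by 0.84 and Spp1 by 0.84, and Thbs1 differed by -1.14, Fn1 by -0.77, Bgn by -0.67 and Tnc by -0.55. Its TMM factor was 0.799, against 0.983 and 0.991, and its median ratio of CPM to TPM over the genes other than Lum (a share of transcripts, which is per length) was 1.39 relative to the mean of its group, against 0.886 and 0.899. Over all tested genes that median absolute difference was 0.369 in this library and 0.322 in replicate 1 of the induced Zfp143 siRNA group. Both libraries are said below to stand apart, as no other was above 0.27. For the 10 genes the latter had 0.22. Where leaving out replicate 3 of the uninduced control group changed a call or a sign among the 10 genes, results with and without it are given.

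**Figure D1:**
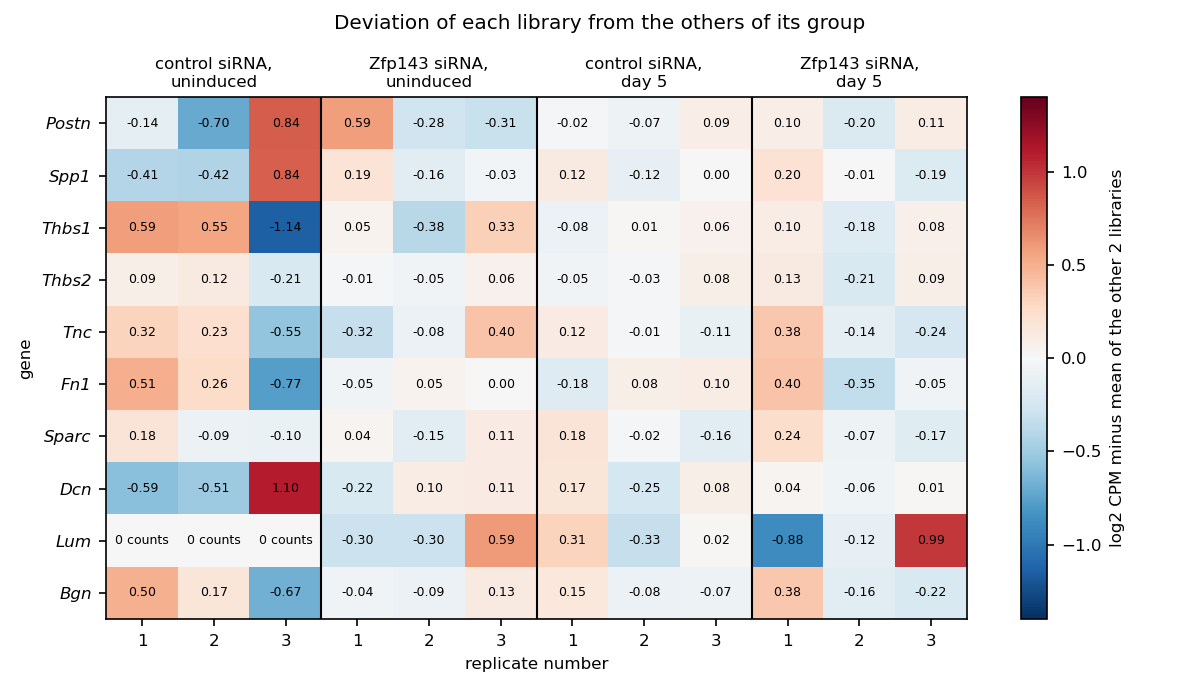
Difference in log2 CPM between each library and the mean of the other two of its group (columns: 12 libraries, rows: the 10 genes). Replicate 3 of the uninduced control group holds the widest differences, from -1.14 for Thbs1 to 1.10 for Dcn.

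Induction with the control siRNA compares day 5 with uninduced cells that received the same siRNA. Myogenic differentiation, the change of serum and the longer time since transfection come together there and cannot be told apart. Called here means an adjusted p under 0.05 over the 15030 genes tested. Of the 10 genes, 9 were higher on day 5 and Spp1 was lower, beside 33.2% of all tested genes called higher and 30.9% called lower (64.1% in either direction). The CPM ranges of the 2 groups did not overlap for any of the 10, beside 35.8% of all tested genes higher and 32.4% lower without overlap. Without Lum, which had no counts in uninduced control cells, the log2 fold changes ran from -0.57 for Spp1 to 8.12 for Postn with a median of 3.35, beside a median of 0.03 over all tested genes. With the Zfp143 siRNA the counts were again 9 higher and 1 lower, beside 36.0% and 30.1% of all tested genes (66.1% in either direction), and the median without Lum was 2.03, beside 0.10 over all tested genes. Without overlap in CPM, 9 were higher and 1 lower, beside 38.5% and 33.7%. Scaling by library size alone moved the median of all genes to 0.21 and 0.35 in these comparisons.

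The siRNA comparison in uninduced cells asks how growing myoblasts with the Zfp143 siRNA differed from those with the control siRNA. The groups hold no rescue of Zfp143, so lower Zfp143 and other effects of the siRNA cannot be told apart. Thbs1, Bgn, Thbs2, Spp1 and Sparc were higher, 5 of the 10 genes beside 15.4% of all tested genes, and Fn1 was lower, 1 of 10 beside 17.1% (32.5% of tested genes were called in either direction). Postn, Tnc, Dcn and Lum did not pass the test. Without Lum, with 1 count in these 6 libraries, the median log2 fold change was 0.47, beside -0.04 over all tested genes. The same 6 had CPM ranges that did not overlap, beside 21.0% of all tested genes higher and 22.8% lower. On TPM 4 were higher (Spp1, Thbs1, Thbs2 and Bgn) and 1 lower (Postn) without overlap, beside 16.1% and 17.5%. Without replicate 3 of the uninduced control group the counts were again 5 higher and 1 lower.

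On day 5 the called genes were all lower. Postn, Lum, Bgn, Dcn, Thbs2 and Tnc were lower with the Zfp143 siRNA, 6 of the 10 genes beside 5.77% of all tested genes, and none was higher, beside 3.73% (9.49% in either direction). Thbs1, Fn1, Spp1 and Sparc did not pass the test. The median log2 fold change over the 10 was -0.715, beside -0.03 over all tested genes. By range alone, the CPM of 8 of the 10 were lower without overlap, beside 16.7% of all tested genes, and none was higher, beside 12.3%. On TPM 6 were lower without overlap and none was higher, beside 11.1% of all tested genes lower and 20.9% higher. Leaving out replicate 1 of the control group or replicate 2 of the Zfp143 siRNA group left 3 genes lower, because Tnc, Dcn and Lum then missed the threshold. Without the 2 libraries that stand apart, replicate 3 of the uninduced control and replicate 1 of the induced Zfp143 siRNA group, 8 were lower, with Fn1 and Thbs1 added.

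The difference between the siRNA effects on day 5 and in uninduced cells (the interaction) was below 0 for 6 of the 10 genes, beside 11.8% of all tested genes: Thbs1, Bgn, Thbs2, Postn, Spp1 and Sparc. None was above 0, beside 10.6% (22.5% in either direction). The comparisons share libraries: each group enters 1 siRNA and 1 induction comparison, and the interaction uses all 4 groups. For Tnc, Fn1, Dcn and Lum the interaction did not pass. The states it compares differ in time since transfection as well as in induction, and these cannot be told apart. Without replicate 3 of the uninduced control group 7 genes passed, Dcn being added, and leaving out single libraries of any group gave from 4 to 7.

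**Figure D2:**
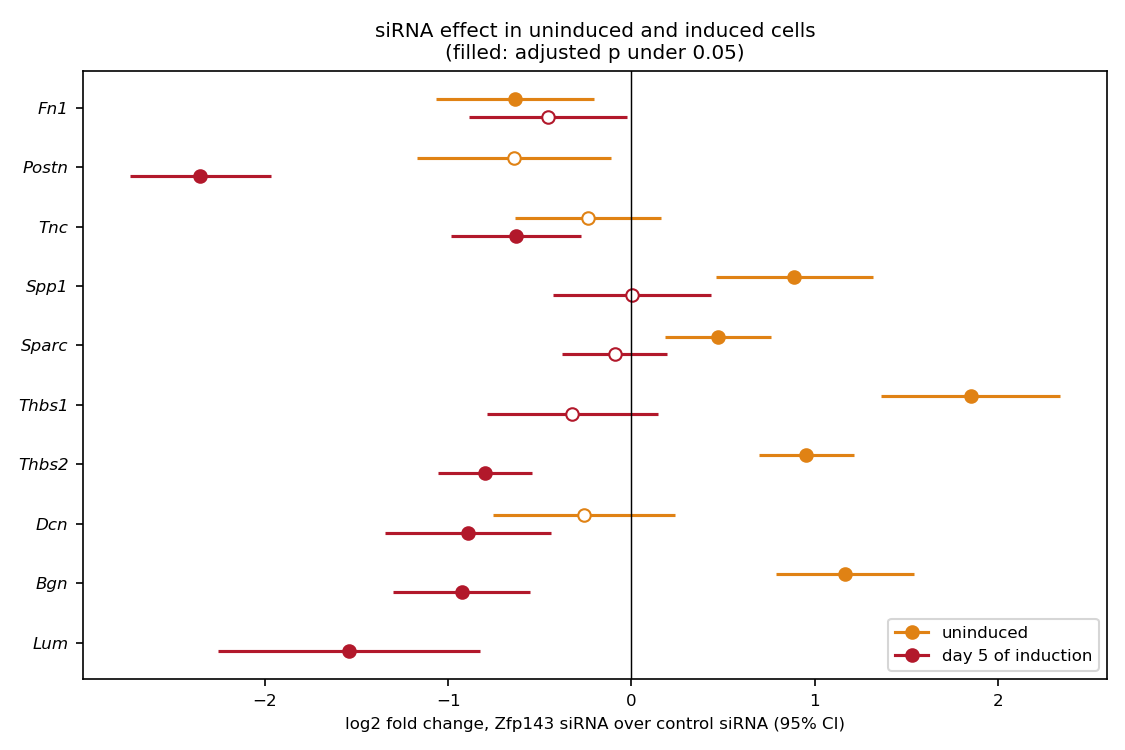
Log2 fold change of Zfp143 siRNA over control siRNA for each gene with its 95% confidence interval, in uninduced cells (orange) and on day 5 of induction (red), filled where the adjusted p is under 0.05. Thbs1, Bgn, Thbs2, Spp1 and Sparc lie above 0 with filled points in uninduced cells, and the filled points of day 5 all lie below 0. Lum is drawn for day 5 alone because it had 1 count in the uninduced libraries.

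Fibronectin, from Fn1, is the glycoprotein that cells assemble into fibrils through integrins, and on which other matrix proteins are laid down. Fn1 stood at 5285, 4708 and 2922 CPM in uninduced control cells and at 2710, 2833 and 2778 CPM with the Zfp143 siRNA. It stood at 9028, 10220 and 10300 CPM on day 5 with the control siRNA and at 8558, 6045 and 6934 CPM with the Zfp143 siRNA. All 6 induced libraries lie above all 6 uninduced ones, and in uninduced cells the 3 Zfp143 siRNA libraries lie just below the lowest control library. Induction raised Fn1 by 1.19 (SE 0.202, adjusted p = 0.000116) with the control siRNA and by 1.37 (SE 0.202, adjusted p = 3.41e-05) with the Zfp143 siRNA, both on the log2 scale.

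In uninduced cells the log2 fold change of Fn1 was -0.63 (SE 0.202, adjusted p = 0.0261). Without replicate 3 of the uninduced control group that change was -0.84 (adjusted p = 0.000157), and leaving out any other library of either group gave an adjusted p between 0.0601 and 0.109. On TPM the ranges overlapped, since the third control library stood at 303.1 TPM and the Zfp143 siRNA libraries between 357.1 and 396.1. On day 5 the log2 difference of -0.46 (SE 0.202) missed the threshold at an adjusted p of 0.213, and it passed without replicate 3 of the uninduced control group (adjusted p = 0.0164). The interaction was 0.18 with a 95% confidence interval from -0.43 to 0.79.

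Periostin, from Postn, is a matricellular protein that binds fibronectin, tenascin-C and collagen I. Postn was close to silent in uninduced cells, at 3.59, 2.74 and 5.715 CPM with the control siRNA and at 3.31, 2.185 and 2.15 CPM with the Zfp143 siRNA. In induced cells it stood at 1099, 1071 and 1154 CPM with the control siRNA and at 226.4, 197 and 227.6 CPM with the Zfp143 siRNA. The uninduced groups overlap on CPM, while the induced groups are far apart with little spread within each. On TPM the uninduced ranges did not overlap, at 1.29 to 1.71 with the control siRNA and 0.824 to 1.20 with the Zfp143 siRNA. Induction raised Postn 278.5-fold with the control siRNA (log2 8.12, SE 0.210, adjusted p = 1.15e-12) and 84.9-fold with the Zfp143 siRNA (log2 6.41, SE 0.224, adjusted p = 1.33e-11).

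Its day 5 level was 5.11-fold lower with the Zfp143 siRNA (log2 -2.35, SE 0.181, adjusted p = 1.72e-06), the lowest fold change of the 10 genes. In uninduced cells the log2 difference of -0.64 (SE 0.248) did not pass, at an adjusted p of 0.0605. That value passed with scaling by library size alone, without the filter on low counts, with DESeq2 and without replicate 2 of the control or replicate 1 of the Zfp143 siRNA group (adjusted p from 0.0179 to 0.0461), and it was -0.31 (adjusted p = 0.271) without replicate 3 of the uninduced control group. The siRNA effect on day 5 was lower than in uninduced cells by a log2 interaction of -1.71 (SE 0.307, adjusted p = 0.00122).

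RefSeq promoters were matched for 6 of the 10 genes, and the 250 bases before the start are shown for 4 with different siRNA responses: Postn, lower on day 5 alone past the test, Spp1, higher in uninduced cells alone past the test, and Thbs2 and Bgn, higher in uninduced cells and lower on day 5. Capitals mark matches, on either strand, to TATAAA (the TATA box), to CANNTG (the E-box, bound by bHLH factors), to CCAAT, to ACTACAA (part of the site known for ZNF143) and to GGAATG (the core bound by TEAD factors). The sequences are RefSeq's, read 5′ to 3′ on the strand of the gene, build GRCm38.p6.
Postn, chr3:54360857-54361106, plus strand: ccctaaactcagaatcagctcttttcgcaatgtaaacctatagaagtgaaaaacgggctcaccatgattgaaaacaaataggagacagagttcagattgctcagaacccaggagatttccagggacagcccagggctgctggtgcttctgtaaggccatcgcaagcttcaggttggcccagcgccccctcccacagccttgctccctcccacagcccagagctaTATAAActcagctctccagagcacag
Spp1, chr5:104434861-104435110, plus strand: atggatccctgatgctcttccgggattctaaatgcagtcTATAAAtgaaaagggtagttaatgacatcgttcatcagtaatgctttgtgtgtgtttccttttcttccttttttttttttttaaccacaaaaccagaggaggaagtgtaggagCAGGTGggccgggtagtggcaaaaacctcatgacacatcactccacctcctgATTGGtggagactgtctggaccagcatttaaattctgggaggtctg
Thbs2, chr17:14694263-14694512, minus strand: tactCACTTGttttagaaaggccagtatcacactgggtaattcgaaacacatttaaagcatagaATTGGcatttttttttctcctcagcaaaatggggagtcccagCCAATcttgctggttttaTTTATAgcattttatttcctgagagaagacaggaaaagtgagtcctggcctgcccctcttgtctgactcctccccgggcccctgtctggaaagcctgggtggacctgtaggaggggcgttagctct
Bgn, chrX:73483351-73483600, plus strand: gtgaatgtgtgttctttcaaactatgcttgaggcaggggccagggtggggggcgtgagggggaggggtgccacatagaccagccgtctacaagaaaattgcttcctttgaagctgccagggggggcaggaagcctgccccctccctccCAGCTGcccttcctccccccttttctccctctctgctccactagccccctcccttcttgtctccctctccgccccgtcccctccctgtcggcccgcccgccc
Postn holds TATAAA 26 bases before the RefSeq start, the usual place of a TATA box, and no match to the other motifs. The RefSeq starts of Postn, Spp1, Thbs2 and Bgn lie 18, 7, 27 and 1 bases from the start of their first GENCODE transcript. Spp1 holds TATAAA at 211 bases, an E-box at 98 and CCAAT, on the other strand, at 46. Thbs2 holds 2 CCAAT matches, at 186 bases on the other strand and at 144, with an E-box at 246 and TATAAA on the other strand at 126. Bgn holds a palindromic E-box, CAGCTG, at 102 bases and none of the other motifs. Sparc holds 2 E-boxes, at 60 and 10 bases, and Tnc holds TATAAA at 205 and E-boxes at 192 and 100 bases. The Tnc window lies 26211 bases from the start of its first GENCODE transcript, so it is not printed. Over 32851 RefSeq promoters of this length, 12.4% hold TATAAA, 66.2% CANNTG, 33.8% CCAAT, 2.81% ACTACAA and 12.6% GGAATG. No match to ACTACAA or GGAATG is in the 6 windows, which says only that these letters are not there.

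Tenascin-C, from Tnc, is a large matricellular protein of wounds and regenerating muscle. Tnc was low throughout, at 9.07, 8.73 and 6.04 CPM in uninduced control cells and 5.76, 6.44 and 8.08 CPM with the Zfp143 siRNA. It stood at 45.0, 42.4 and 40.55 CPM on day 5 with the control siRNA and at 32.6, 25.6 and 24.5 CPM with the Zfp143 siRNA. The uninduced groups overlap and the induced groups do not. Induction raised Tnc by 2.42 (SE 0.175, adjusted p = 1.73e-08) and 2.03 (SE 0.178, adjusted p = 1.61e-07) on the log2 scale with the control and the Zfp143 siRNA.

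Its log2 fold change for the Zfp143 siRNA on day 5 was -0.63 (SE 0.166, adjusted p = 0.0244). This call was lost with scaling by library size alone (adjusted p = 0.113) and without replicate 1, 2 or 3 of the induced control group or replicate 2 or 3 of the induced Zfp143 siRNA group (adjusted p from 0.0578 to 0.111). In uninduced cells the difference was -0.24 (SE 0.187, adjusted p = 0.353), and the interaction was -0.39 with an interval from -0.93 to 0.14.

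Thrombospondins 1 and 2, from Thbs1 and Thbs2, are trimeric glycoproteins that bind CD47 and CD36 and restrain the growth of vessels. Thrombospondin 1 is also known as an activator of latent TGF-beta. Thbs1 stood at 20.6, 20.25 and 9.2 CPM in uninduced control cells and at 61.4, 50.1 and 69.8 CPM with the Zfp143 siRNA. Induction left it at 1827, 1905 and 1951 CPM with the control siRNA and at 1587, 1392 and 1566 CPM with the Zfp143 siRNA. On CPM the siRNA groups do not overlap in either state, and their order is opposite in uninduced and induced cells. On TPM the day 5 ranges overlap, at 500.8 to 570.8 with the control siRNA and 401.2 to 521.4 with the Zfp143 siRNA. The rise with the Zfp143 siRNA in uninduced cells was 3.61-fold (log2 1.85, SE 0.230, adjusted p = 4.45e-05), and 1.57 on the log2 scale without replicate 3 of the control group. On day 5 the log2 difference of -0.32 (SE 0.219) did not pass, at an adjusted p of 0.471.

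Induction raised Thbs1 by a log2 of 6.82 (SE 0.2275, adjusted p = 2.54e-11) with the control siRNA and by 4.65 (SE 0.222, adjusted p = 7.44e-10) with the Zfp143 siRNA. The interaction was -2.17 (SE 0.318, adjusted p = 0.000237), and -1.89 (adjusted p = 2.46e-06) without replicate 3 of the uninduced control group.

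Thbs2 stood at 142.1, 144.6 and 124.1 CPM in uninduced control cells and at 264, 259.7 and 272.9 CPM with the Zfp143 siRNA. After 5 days of induction it stood at 1366, 1377 and 1450 CPM with the control siRNA and at 848.9, 725.7 and 833.7 CPM with the Zfp143 siRNA. No group overlaps another. Thbs2 was 1.94-fold higher with the Zfp143 siRNA in uninduced cells (log2 0.96, SE 0.121, adjusted p = 4.63e-05) and 1.74-fold lower on day 5 (log2 -0.80, SE 0.120, adjusted p = 0.000398). Both calls held without either library that stands apart. Induction raised it by 3.35 (SE 0.1205, adjusted p = 1.21e-11) and 1.60 (SE 0.120, adjusted p = 3.06e-08) on the log2 scale, and the interaction was -1.75 (SE 0.170, adjusted p = 6.46e-06).

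Per length, the thrombospondins changed places. The TPM of Thbs1 divided by that of Thbs2 was 0.14, 0.137 and 0.0722 in uninduced control cells and 0.226, 0.19 and 0.25 with the Zfp143 siRNA. On day 5 it was 1.31, 1.34 and 1.32 with the control siRNA and 1.74, 1.88 and 1.84 with the Zfp143 siRNA. Thbs2 was thus the more abundant in all 6 uninduced libraries and Thbs1 in all 6 induced ones, and the ratio was higher with the Zfp143 siRNA in both states without overlap.

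**Figure D3:**
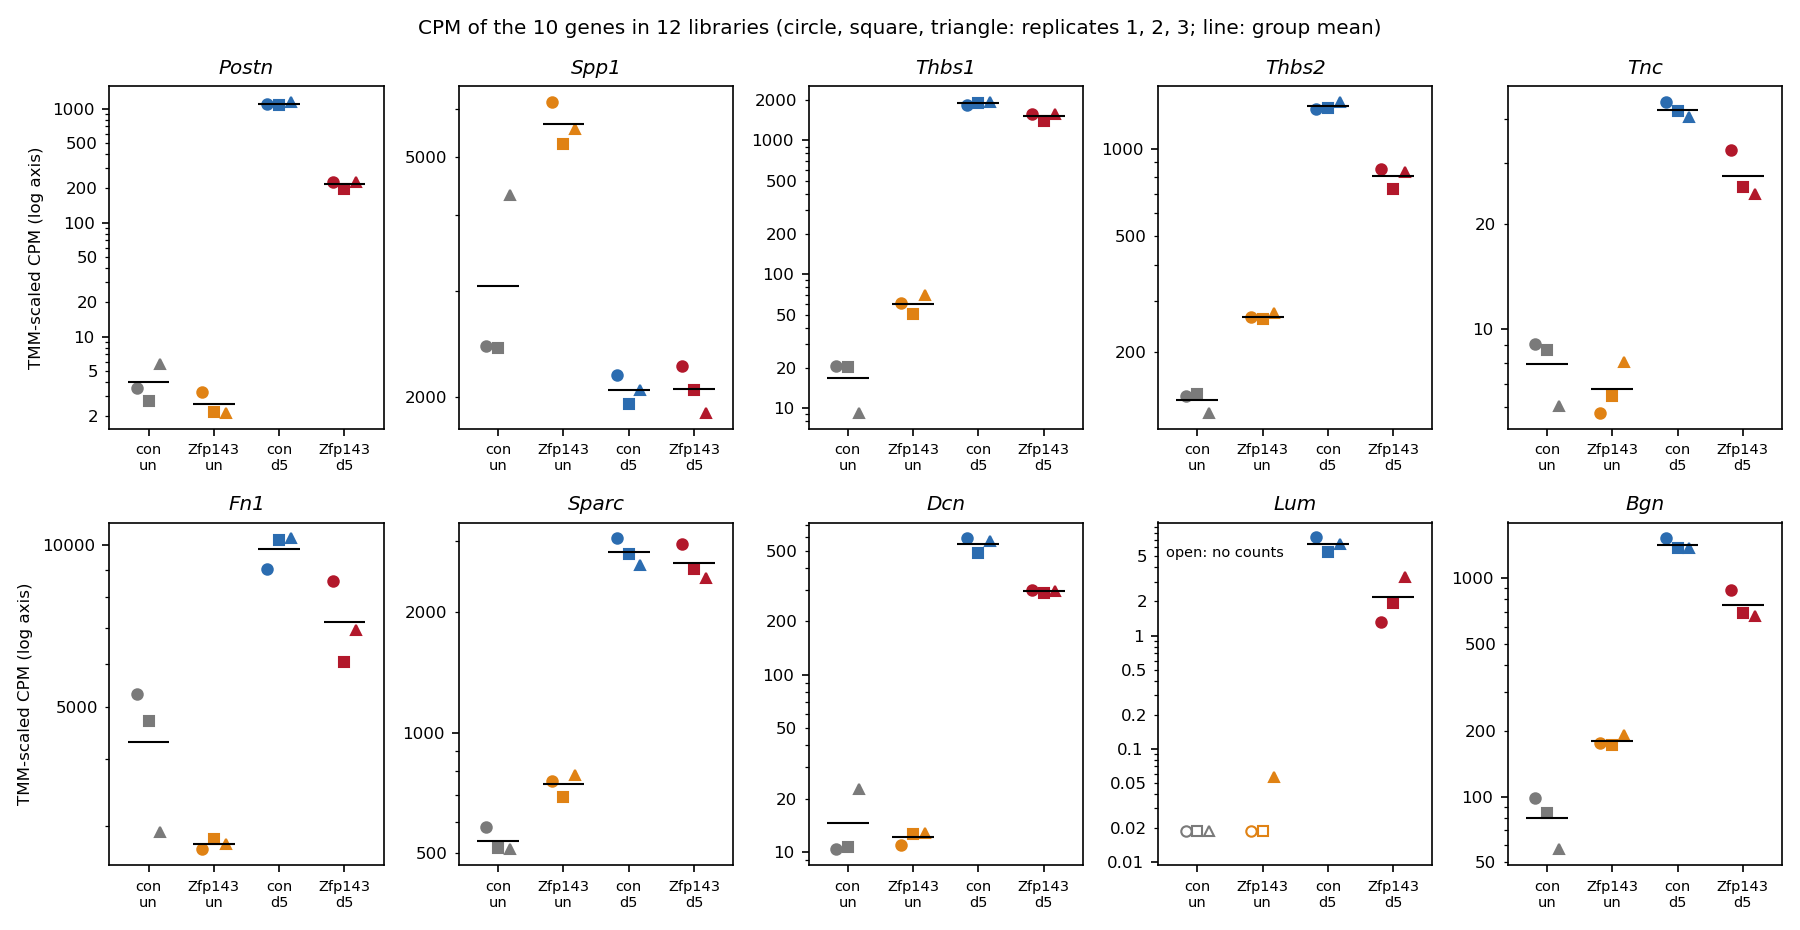
TMM-scaled CPM, on log axes, of the 10 genes in the 12 libraries (un, uninduced; d5, day 5; con, control siRNA), with circles, squares and triangles for replicates 1, 2 and 3 and lines for group means. All but Spp1 are higher in every induced library than in every uninduced one, and Postn separates the induced groups most widely, at 1071 to 1154 against 197 to 227.6 CPM.

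Osteopontin, from Spp1, is a phosphorylated glycoprotein that binds integrins and CD44 and is made by myoblasts as well as by bone cells and macrophages. It was the most abundant of the 10 genes per length in each group. Spp1 stood at 2429, 2414 and 4325 CPM in uninduced control cells and at 6170, 5242 and 5557 CPM with the Zfp143 siRNA. Its day 5 values were 2179, 1948 and 2054 CPM with the control siRNA and 2256, 2055 and 1885 CPM with the Zfp143 siRNA. The uninduced groups do not overlap, though the third control library lies between them, and the induced groups overlap fully. The Zfp143 siRNA raised Spp1 1.85-fold in uninduced cells (log2 0.89, SE 0.201, adjusted p = 0.00393). Without replicate 3 of the control group the value was 1.23 (adjusted p = 1.55e-06). The day 5 difference was 0.00 with a 95% confidence interval from -0.43 to 0.43.

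On induction Spp1 had a log2 fold change of -1.45 (SE 0.201, adjusted p = 1.92e-05) with the Zfp143 siRNA. With the control siRNA it fell by 0.57 (SE 0.201, adjusted p = 0.0224). That smaller fall was -0.24 (adjusted p = 0.0677) without replicate 3 of the uninduced control group and -0.35 (adjusted p = 0.0577) with scaling by library size alone. Without replicate 2 or 3 of the induced control group its adjusted p was 0.0732 and 0.0575. On TPM the control groups overlap, at 3061 to 3587 uninduced and 2898 to 3120 induced. The interaction was -0.88 (SE 0.284, adjusted p = 0.0367), and it missed the threshold without any one of 9 of the 12 libraries (adjusted p from 0.0621 to 0.0937). Estimated counts of Spp1 are not whole in any library.

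SPARC, also called osteonectin, is a collagen-binding matricellular protein that takes part in collagen processing. Sparc stood at 582.1, 514 and 511.1 CPM in uninduced control cells and at 756.8, 692.5 and 781.6 CPM with the Zfp143 siRNA. In induced cells it stood at 3056, 2789 and 2620 CPM with the control siRNA and at 2953, 2556 and 2435 CPM with the Zfp143 siRNA. The uninduced groups do not overlap and the induced groups do. Sparc was 1.39-fold higher with the Zfp143 siRNA in uninduced cells (log2 0.47, SE 0.135, adjusted p = 0.015). This call was lost without replicate 2 of the control group or replicate 1 or 3 of the Zfp143 siRNA group (adjusted p from 0.0548 to 0.068), and on TPM the ranges overlapped, at 240.7 to 438 against 422.6 to 461.

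The Sparc difference on day 5 was -0.09 with an interval from -0.38 to 0.20, and its sign turned with scaling by library size alone and with an offset for transcript length. Induction raised Sparc by 2.40 (SE 0.135, adjusted p = 1.28e-09) and 1.83 (SE 0.135, adjusted p = 2.63e-08) on the log2 scale. The interaction of -0.56 (SE 0.191, adjusted p = 0.0457) is close to the threshold and was lost with library size scaling, without the low-count filter, with the length offset and without any one of 9 of the 12 libraries (adjusted p from 0.0564 to 0.129).

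Decorin, biglycan and lumican are small leucine-rich proteoglycans. Decorin and biglycan carry chondroitin or dermatan sulfate chains and bind collagen and TGF-beta, and lumican carries keratan sulfate and shapes collagen fibrils. Biglycan is the one of these that rose in uninduced cells. Bgn stood at 98.35, 84.2 and 57.2 CPM in uninduced control cells and at 175.8, 172.3 and 190.6 CPM with the Zfp143 siRNA. Induction left it at 1527, 1371 and 1378 CPM with the control siRNA and at 887.2, 690.1 and 673 CPM with the Zfp143 siRNA. No group overlaps another. Bgn was 2.245-fold higher with the Zfp143 siRNA in uninduced cells (log2 1.17, SE 0.177, adjusted p = 0.000223) and 1.90-fold lower on day 5 (log2 -0.93, SE 0.175, adjusted p = 0.00266).

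Both Bgn calls passed in all 21 alternative settings. Induction raised it 17.8-fold with the control siRNA (log2 4.16, SE 0.176, adjusted p = 1.17e-10) and 4.18-fold with the Zfp143 siRNA (log2 2.06, SE 0.175, adjusted p = 1.38e-07). The interaction was -2.09 (SE 0.2485, adjusted p = 4.11e-05).

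Dcn stood at 10.3, 10.7 and 22.6 CPM in uninduced control cells and at 10.9, 12.6 and 12.7 CPM with the Zfp143 siRNA. After 5 days of induction it stood at 589.8, 485.3 and 565.3 CPM with the control siRNA and at 300.8, 287.3 and 296.5 CPM with the Zfp143 siRNA. The uninduced groups overlap because of the third control library, and the induced groups are well apart. Induction raised Dcn 37.8-fold (log2 5.24, SE 0.222, adjusted p = 1.62e-10) with the control siRNA and 24.4-fold (log2 4.61, SE 0.2245, adjusted p = 6.97e-10) with the Zfp143 siRNA. On day 5 it was 1.85-fold lower with the Zfp143 siRNA (log2 -0.89, SE 0.212, adjusted p = 0.014). That call was lost without replicate 1 or 3 of the induced control group or replicate 2 of the induced Zfp143 siRNA group (adjusted p from 0.053 to 0.0624).

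In uninduced cells the Dcn difference was -0.26 (SE 0.234, adjusted p = 0.425), and without replicate 3 of the control group it was 0.21 (adjusted p = 0.231). The interaction depends on the same library. It was -0.63 (SE 0.316, adjusted p = 0.171) with all 12 libraries and -1.09 (adjusted p = 0.000171) without that one.

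Lum had no counts in the 3 uninduced control libraries and 1 count in replicate 3 of the uninduced Zfp143 siRNA group. On day 5 it had 142, 104 and 123 counts with the control siRNA and 20, 39 and 66 with the Zfp143 siRNA. The induced groups do not overlap, but replicates 1 and 3 of the Zfp143 siRNA group differ widely. Lum was 2.91-fold lower with the Zfp143 siRNA on day 5 (log2 -1.54, SE 0.335, adjusted p = 0.00981), with adjusted p-values of 0.0561 without replicate 1 of the control group and 0.05 without replicate 2 of the Zfp143 siRNA group. Against a floor of 3 counts per library, Lum was at least 36.8-fold higher on day 5 with the control siRNA (adjusted p = 1.12e-07). With the Zfp143 siRNA the ratio of summed counts, 125 against 1 and scaled for library size, was 118, with a 95% counting interval from 20.8 to 4698 that covers counting error only.

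The proportion of the proteoglycans was read in the same way. The TPM of Dcn divided by that of Bgn was 0.151, 0.192 and 0.6 in uninduced control cells and 0.0879, 0.107 and 0.0975 with the Zfp143 siRNA. On day 5 it lay between 0.544 and 0.579 with the control siRNA and between 0.537 and 0.6465 with the Zfp143 siRNA, and these groups overlap. With the control siRNA the uninduced and induced ranges overlap too, through uninduced replicate 3 at 0.6, and with the Zfp143 siRNA they do not.

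Levels of different genes were compared as TPM, which is per length. In uninduced control cells the order was Spp1, Fn1, Sparc, Bgn, Thbs2, Dcn, Thbs1, Postn, Tnc and Lum. The ranges of Fn1 and Sparc, of Bgn and Thbs2, of Thbs1 and Postn and of Postn and Tnc overlapped there. Spp1 averaged 3265 TPM (SD 282) and made up 74.8% of the TPM of the 10 genes, Fn1 averaged 648 TPM (SD 304), and Postn averaged 1.55 TPM (SD 0.229). With the Zfp143 siRNA Sparc stood above Fn1 without overlap, at 442 TPM (SD 19.2) against 377.5 (SD 19.6), and Thbs1 above Dcn with overlap.

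The day 5 order with the control siRNA was Spp1, Sparc, Fn1, Bgn, Dcn, Postn, Thbs1, Thbs2, Tnc and Lum, with overlaps between Dcn and Postn and between Postn and Thbs1. Spp1 made up 28.35% of the TPM of the 10 genes, followed by Sparc at 2449 TPM (SD 36.6), Fn1 at 1919 TPM (SD 196) and Bgn at 1133 TPM (SD 56.6). With the Zfp143 siRNA Postn moved from the sixth to the eighth place, at 131 TPM (SD 24.0) against 586 (SD 26.6). The order of genes within a group was the same on the deposited FPKM.

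Together the 10 genes took 0.419% to 0.45% of all TPM in uninduced control libraries and 0.65% to 0.709% with the Zfp143 siRNA. On day 5 they took 1.04% to 1.11% with the control siRNA and 0.816% to 1.16% with the Zfp143 siRNA. The highest value, 1.16%, is that of replicate 1, the library with the lowest total count, and the other two of its group lie below the control libraries. In uninduced cells Spp1 made up 85.35% of the TPM of the 10 genes with the Zfp143 siRNA.

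**Figure D4:**
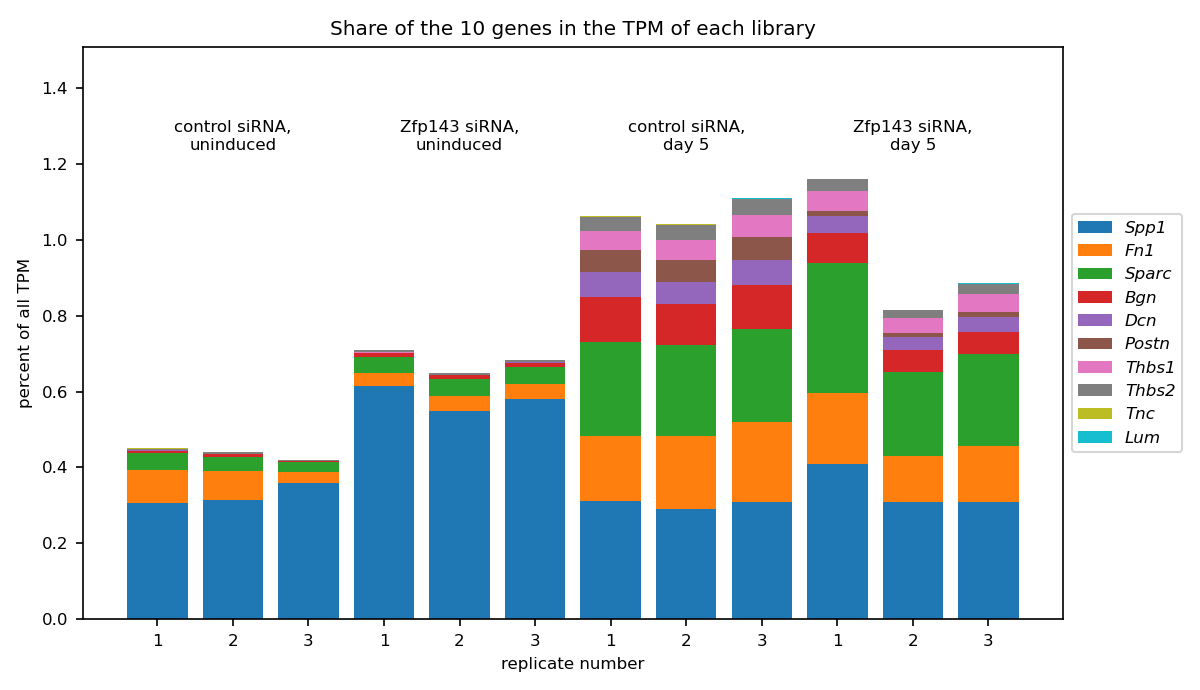
Percent of all TPM in each of the 12 libraries taken by the 10 genes, stacked by gene. Spp1 fills most of each uninduced bar, and Sparc, Fn1, Bgn, Dcn, Postn and the thrombospondins appear on day 5; in replicate 1 of the induced Zfp143 siRNA group the bar reaches 1.16%, against 0.816% and 0.885% in the other two.

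The deposited effective transcript lengths gave a further readout of the same genes. The ranges of the 3 libraries overlapped in all 40 comparisons of a gene between a pair of groups. Lum was listed at 2011.7 bases in each uninduced library without counts, where no read of it could set a length. Its comparisons with uninduced groups therefore say nothing about its length. With 3 libraries against 3, an exact permutation test cannot go below p = 0.1. Sparc averaged 1822 bases (SD 175) on day 5 with the Zfp143 siRNA and 1948 (SD 73.7) with the control siRNA. The Zfp143 siRNA libraries stood at 1632, 1976 and 1857 bases, the shortest in replicate 1. That library had the shortest length of its group for each of these genes but Tnc and Fn1.

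Of 25 other matricellular genes, 17 were tested. In uninduced cells 6 were higher and 3 lower with the Zfp143 siRNA, beside 15.4% and 17.1% of all tested genes. On day 5 none was higher and 6 were lower, beside 3.73% and 5.77%. The same shares stand beside the counts of the lists that follow. The 17 genes had median log2 fold changes of 0.32 and -0.41. Mgp, which encodes matrix Gla protein, an inhibitor of calcification, was the most abundant of them, at 18.9, 112.7, 1758 and 1383 TPM (group means, in the order uninduced control, uninduced Zfp143 siRNA, induced control, induced Zfp143 siRNA). Mgp rose 6.50-fold (log2 SE 0.244, adjusted p = 2.08e-06) in uninduced cells, and on day 5 its difference of -0.43 did not pass (adjusted p = 0.263).

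Ccn2, the gene of connective tissue growth factor, was higher with the Zfp143 siRNA in uninduced cells by 1.75 (SE 0.287, adjusted p = 0.000378). Its day 5 log2 fold change was -1.60 (SE 0.243, adjusted p = 0.000514), and its interaction was -3.35 (adjusted p = 2.55e-05). Ccn5 was higher in uninduced cells by 2.13 (adjusted p = 7.16e-05), and on day 5 its difference was -0.42 (adjusted p = 0.197). Ccn1, which encodes an integrin ligand of the same family, fell by 0.72 on day 5 (adjusted p = 0.00952), as did Fbln1, of fibulin 1, by 0.64 (adjusted p = 0.0156). Ccn4 fell with the Zfp143 siRNA in both states, by 0.89 (adjusted p = 0.000153) and 0.48 (adjusted p = 0.0269). Fstl1 was higher by 0.49 (adjusted p = 0.00608) in uninduced cells, and its day 5 difference was 0.02 (adjusted p = 0.963). Smoc1, at under 1 TPM in each group, was higher in uninduced cells by 2.08 (adjusted p = 0.00644), and Ccn3, also under 1 TPM, fell there by 1.91 (adjusted p = 0.0259). Sparcl1 averaged 0.0516 TPM in uninduced control cells and was listed at 0 with the Zfp143 siRNA. Induction with the control siRNA raised 13 of the 17 and lowered 1, beside 33.2% and 30.9% of all tested genes, and with the Zfp143 siRNA raised 14 and lowered 2, beside 36.0% and 30.1%.

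Of 14 other small leucine-rich proteoglycans, 10 were tested, and on day 5 none was called in either direction, with a median of -0.36. Whether they differ from Bgn, Dcn and Lum was not tested. Ogn, of osteoglycin, was the most abundant, at 1062 and 823.6 TPM on day 5, with a log2 difference of -0.57 (SE 0.257, adjusted p = 0.221). Prelp and Omd, at 45.4 and 36.6 TPM in induced control cells, had differences of -0.46 and -0.51 (adjusted p = 0.37 and 0.197). In uninduced cells 1 was higher, Podnl1, by 1.58 (SE 0.264, adjusted p = 0.000384), and its interaction was -1.34 (adjusted p = 0.00911). On induction 8 rose and 2 fell with either siRNA. Ecm2 rose by 5.43 (adjusted p = 7.4e-11) with the control siRNA, and Tsku, of tsukushi, fell by 0.94 (adjusted p = 0.000351).

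**Figure D5:**
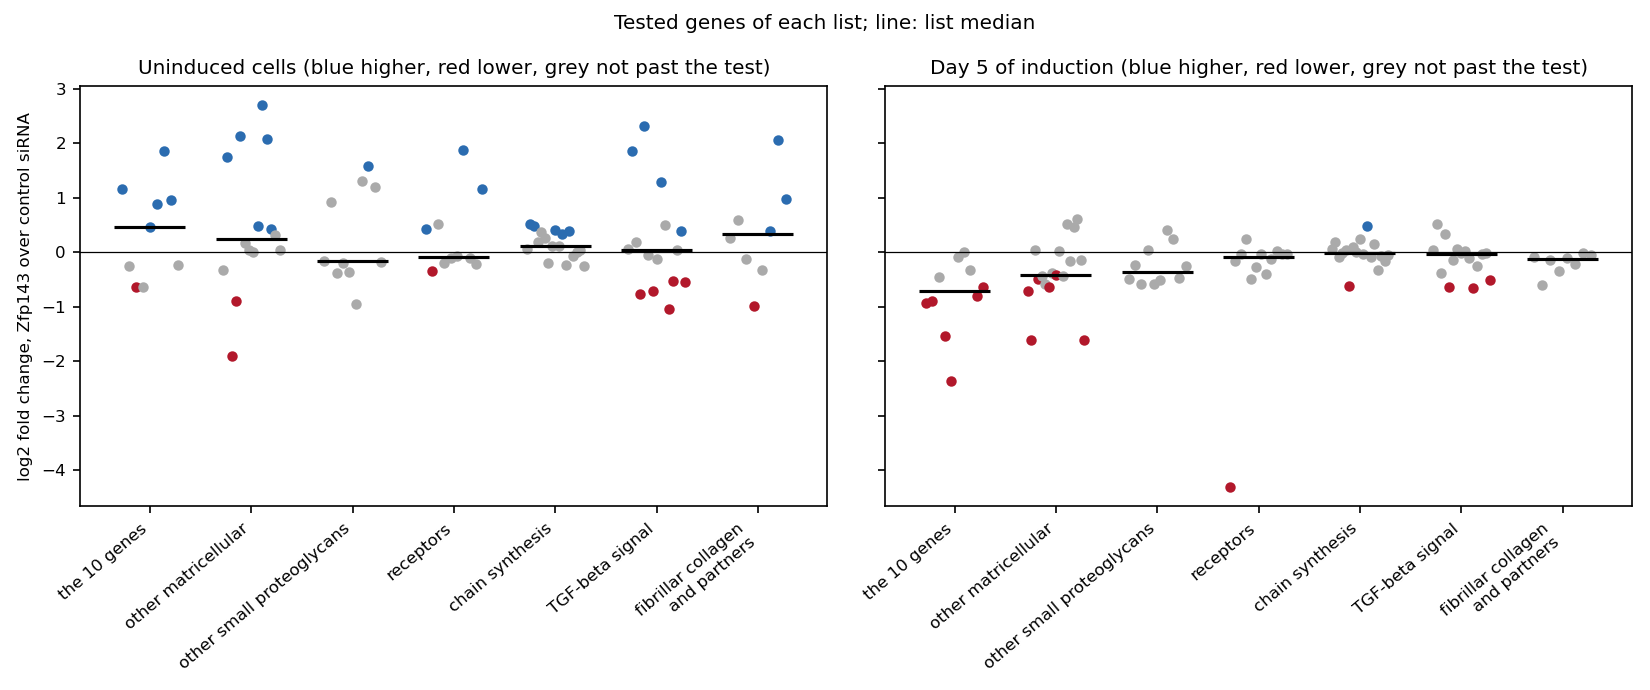
Log2 fold change of Zfp143 siRNA over control siRNA for the tested genes of each list, in uninduced cells and on day 5, with a line at the median of the genes drawn; genes whose fold change has no standard error because a group had no counts are left out. On day 5 the called genes among the 10 and among the other matricellular genes are all lower (6 and 6), and the other small proteoglycans have none.

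Of 12 tested receptor genes, 3 were higher and 1 lower with the Zfp143 siRNA in uninduced cells, close to the 32.5% of all tested genes called there, and on day 5 only Cd36 passed, lower. Cd36, a receptor of the thrombospondins, averaged 7.17 TPM on day 5 with the control siRNA and 0.431 with the Zfp143 siRNA (log2 -4.31, SE 0.319, adjusted p = 8.11e-06), and was listed at 0 in uninduced cells. Itgb3, a subunit of the integrin that binds osteopontin and periostin, was higher by 1.87 (SE 0.177, adjusted p = 3.28e-06) in uninduced cells, with an interaction of -1.99 (adjusted p = 5.45e-05). Sdc4, of syndecan 4, a co-receptor for fibronectin, was higher there by 1.16 (SE 0.109, adjusted p = 3.11e-06), and Cd44, a receptor of osteopontin, by 0.43 (adjusted p = 0.015). Cd47, a receptor of thrombospondin, fell by 0.34 (adjusted p = 0.0473). Itgb1, at 275.4 TPM in uninduced control cells the most abundant, had differences of -0.07 and -0.41 (adjusted p = 0.824 and 0.271), and Lrp1 of -0.22 and -0.04 (adjusted p = 0.505 and 0.957).

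Of 17 tested genes for the synthesis of chondroitin and dermatan sulfate chains, 5 were higher and none lower with the Zfp143 siRNA in uninduced cells, with a median of 0.12. On day 5 Csgalnact1 was higher by 0.49 (adjusted p = 0.013) and Chst11, a chondroitin sulfotransferase, fell by 0.61 (SE 0.116, adjusted p = 0.0026), and the median was -0.02. Dse, the epimerase that makes dermatan sulfate, was higher in uninduced cells by 0.39 (adjusted p = 0.0143) and B4galt7, of the linkage region, by 0.48 (adjusted p = 0.0197). Chst15 rose on induction by 2.69 (adjusted p = 1.29e-10) with the control siRNA. Chpf and Chpf2, of the chain polymerase, had day 5 differences of -0.02 and 0.05 (adjusted p = 0.985 and 0.919).

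Of 15 genes of TGF-beta signalling, 4 were higher and 5 lower with the Zfp143 siRNA in uninduced cells, and on day 5 none was higher and 3 were lower. The ligand genes Tgfb2 and Tgfb3 fell in uninduced cells, by 1.03 (adjusted p = 0.000123) and 0.52 (adjusted p = 0.00377), and Tgfb1 had a difference of 0.49 (adjusted p = 0.0521). Tgfb2 fell on day 5 too, by 0.66 (adjusted p = 0.00351). Smad3 fell in uninduced cells by 0.71 (adjusted p = 0.000983), with a day 5 difference of 0.06 (adjusted p = 0.853). Smad2 and Ltbp3, of a latent TGF-beta binding protein, did not pass in either state (adjusted p from 0.336 to 0.819).

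Among 8 fibrillar collagen genes and their processing partners, 3 were higher and 1 lower in uninduced cells, and on day 5 none was called, with a median of -0.12. Lox, of the collagen cross-linking enzyme, was higher by 2.07 (SE 0.159, adjusted p = 6.42e-07) in uninduced cells and differed by -0.02 (adjusted p = 0.97) on day 5. Pcolce, of the procollagen proteinase enhancer, was higher by 0.97 (adjusted p = 0.000514), and Col3a1 fell by 0.98 (adjusted p = 0.000282), both in uninduced cells. Col1a1 rose on induction by 5.71 (adjusted p = 2.62e-10) with the control siRNA, and its day 5 difference was -0.59 (adjusted p = 0.16). Col1a2 had differences of -0.13 and -0.14 (adjusted p = 0.592 and 0.728). All 8 rose on induction with either siRNA.

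Markers of the cell types that could make these genes were summed as TPM. All 12 myogenic markers were above 0 on day 5, with sums of 7952 to 8942 TPM in induced control libraries and 3079 to 3978 with the Zfp143 siRNA, and 192 to 308 and 229 to 258 TPM in uninduced cells. Of the 12, 9 were lower on day 5 with the Zfp143 siRNA, Acta1, the most abundant, by 1.55 (adjusted p = 0.000492), beside the 6 lower matrix genes. Of 10 fibroblast markers, 7 were above 0 in induced control cells, with sums of 3593 to 4250 TPM against 2012 to 2357 with the Zfp143 siRNA (114 to 140 and 116 to 146 TPM uninduced). Ly6a held most of that sum, at 3675 and 1963 TPM on day 5, while Pdgfra stood at 90.3 and 86.9, Pdgfrb at 124.4 and 121.9 and Cd34 at 13.2 and 18.6 TPM. Of the 7 tested, 2 were lower and none higher on day 5, with a median of -0.13. Thy1, Dpp4 and Tcf21 were at 0 in induced control cells. The 6 smooth muscle markers summed to 12.7 to 29.7 TPM in uninduced control cells and 45.0 to 52.3 with the Zfp143 siRNA. On day 5 the sums were 2181 to 2572 TPM with the control siRNA and 1396 to 1685 with the Zfp143 siRNA. Myh11 and Cnn1 averaged at most 0.0582 and 0.371 TPM in any group and did not pass the filter on low counts. Acta2, the most abundant of the 6, held most of the day 5 sums, at 2159 and 1398 TPM with the control and the Zfp143 siRNA. It was higher by 1.72 (adjusted p = 2.86e-06) in uninduced cells and fell by 0.76 (adjusted p = 0.0037) on day 5. Of the 4 tested, 4 were higher in uninduced cells, and on day 5 Acta2 and Tagln were lower, while Lmod1 and Smtn had differences of 0.28 each (adjusted p = 0.647 and 0.492). The part of these marker levels in the results was not tested.

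Of 5 tenocyte markers Thbs4 was at 0 in 3 groups, and the sums ran from 20.03 to 119 TPM, led by Scx. Of 8 osteoblast markers Ibsp was at 0 in each group and the sums ran from 24.5 to 99.1 TPM, led by Bglap2, which fell by 1.82 (adjusted p = 0.000141) on day 5. Of 7 chondrocyte markers Col9a1 was at 0 in each group and the sums ran from 7.82 to 35.7 TPM, led by Sox9. With the Zfp143 siRNA 3 of the 4 tested were higher in uninduced cells and 1 on day 5, beside 15.4% and 3.73% of all tested genes. None was lower. Of 8 macrophage markers Adgre1 was at 0 in each group and the sums ran from 22.5 to 35.6 TPM, led by Cd14. Of the 4 tested, 2 were higher with the Zfp143 siRNA in uninduced cells and 1 on day 5, beside the same shares, and none was lower. Of 6 endothelial markers Tie1 was at 0 in each group, and the sums were at most 1.51 TPM, led by Tek. Of 6 adipocyte markers Adipoq was at 0 in uninduced cells, and the sums ran from 72.7 to 248 TPM, led by Lpl. Lpl had group means of 66.5 to 214.7 TPM and Pparg of 9.19 to 12.5 TPM. Adipoq, Plin1, Fabp4 and Cidec averaged at most 1.02 TPM in any group and did not pass the filter on low counts. The part of these cell type markers was not tested either.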

How the data were processed

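Total polyadenylated RNA of 12 C2C12 libraries was sequenced from a kit that does not mark strand. Reads were trimmed with fastp 1.0.1, aligned with STAR 2.7.11b to GRCm39 and quantified with Salmon, per the submitters' processing notes (Salmon's version and the gene annotation: not given in the sources used here). In the table as deposited stand estimated counts per gene, a score column that the authors made and that holds TPM, the deposited FPKM, and effective transcript lengths in bases. Of 78810 lines, 535 repeat a gene ID and were dropped. Estimated counts were rounded and filtered with filterByExpr (minimum count 10, minimum total 15) in edgeR 4.0.16 with R 4.3.3, which left 15030 genes. A model of 4 group means was fitted with TMM factors and edgeR's robust quasi-likelihood test (8 residual degrees of freedom), tested on simulated data. P-values were adjusted by Benjamini-Hochberg over all tested genes, with 0.05 as the threshold. Log2 CPM used a prior count of 2. Alternatives used limma 3.58.1 and DESeq2 1.42.0. Without strand, reads of overlapping antisense genes cannot be told apart.

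The 10 genes and the lists were chosen with earlier results of these data known. Named list genes are the 3 most abundant of each list by mean TPM and the one of smallest adjusted p in each direction of each comparison, and of marker lists the most abundant. Pdgfra, Pdgfrb, Cd34, Tagln, Lmod1, Smtn, Myh11, Cnn1, Pparg, Plin1, Fabp4 and Cidec were named after their values were seen. One gene that this rule names is not reported here. Protein sequences were not analysed here.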

Additional observations from a re-analysis of the deposited data

Results flagged for a closer look

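For 6 of the 10 genes the effect of the Zfp143 siRNA on day 5 differed from that in uninduced cells in the test of the difference itself (edgeR's interaction term, adjusted p under 0.05). The difference was -2.17 for Thbs1 (log2 1.85 uninduced and -0.32 on day 5), -2.09 for Bgn (1.17 and -0.93) and -1.75 for Thbs2 (0.96 and -0.80). It was -1.71 for Postn (-0.64 and -2.35), -0.88 for Spp1 (0.89 and 0.00) and -0.56 for Sparc (0.47 and -0.09). The first 4 passed under each of the 20 alternatives run for the interaction. Zfp143 itself was lower in uninduced cells and did not differ past the test on day 5, and its own difference was 1.22 (adjusted p = 0.00358).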

How the results depend on the processing

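The count of the 10 genes lower with the Zfp143 siRNA in uninduced cells, 1, became 2 with scaling by library size alone, without the filter on low counts, with DESeq2's Wald test and without both libraries that stand apart, and 0 when only the groups compared were fitted; leaving out single libraries gave 0 to 1. The day 5 count, 6 called and 6 lower, ranged from 3 to 7 when single libraries were left out. All tested genes called on day 5 numbered 901 to 2014 then and 2525 without both libraries that stand apart, and the interaction then called 5755. Spp1 was no longer lower on induction with the control siRNA, 0 genes, under library size alone and when only the groups compared were fitted, and leaving out single libraries gave 0 to 1. Ranges of effective length that do not overlap numbered 0 to 6 when single libraries were left out. Directions turned for Dcn in uninduced cells (-0.45 to 0.21 when single libraries were left out, 0.20 without both libraries). They also turned for Sparc on day 5 (0.0016 with library size alone, 0.023 with the length offset). For Spp1 on day 5 they turned as well (-0.0626 to 0.066 when single libraries were left out, -0.0636 without both libraries). Lum in uninduced cells ran from 0 to 2.37, the 0 without its 1 count, which is no turn of direction. None of these values passed the test, and the cause was not tested.

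The labels do not say that replicate numbers pair the libraries. Correlations of deviations ran from -0.0963 to 0.306 over 18 same-numbered pairs and from -0.279 to 0.249 over 36 others, so not every same-numbered pair passed 0.1 and the numbers were not used as pairs. With the replicate block, all tested genes called were 5115 against 4886 in uninduced cells, 1501 against 1427 on day 5, 9750 and 10079 on induction and 3564 for the interaction, and the counts of the 10 genes were the same (5 higher and 1 lower, 6 lower, 9 and 1, 9 and 1, 6 lower). Depth limits Lum, with 125 to 369 summed counts on day 5 and at most 1 before.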

Other observations

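Dcn and Lum are neighbours on chromosome 10 in the RefSeq order, followed by Kera and Epyc, further small proteoglycans. On day 5 with the control siRNA Dcn averaged 633 TPM, Lum 5.28, Kera 0.0286 and Epyc 0.0676, so the row of related genes spans very different levels. Spp1 lies beside Mepe, Ibsp and Dmp1 on chromosome 5, genes of mineralised tissue. Spp1 averaged 3037 TPM on day 5 with the control siRNA, Ibsp was listed at 0 in each group, and Mepe and Dmp1 averaged at most 0.329 TPM. Thbs2 lies beside Smoc2 on chromosome 17, a further matricellular gene, which rose on induction by 1.88 (adjusted p = 1.5e-08) with the control siRNA and differed by -0.16 (adjusted p = 0.572) on day 5 between siRNAs.

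The genes whose log2 CPM followed each of the 10 most closely over the 12 libraries were named by Pearson's r, as a description: the 12 points fall into 4 groups, which set most of r. For Postn it was Actc1, cardiac actin (r = 0.996), at 418 CPM on day 5 with the control siRNA and 73.6 with the Zfp143 siRNA. For Thbs1 it was Ccn5 (r = 0.997), for Dcn Unc45b, a myosin chaperone (r = 0.998), and for both Thbs2 and Bgn Camk2a (r = 0.996 and 0.995). For Tnc it was Rhobtb1 (r = 0.997), for Fn1 Cnksr3 (r = 0.994) and for Sparc Lgals3bp (r = 0.999). For Spp1 it was Clec4d (r = 0.991), at under 1 CPM in each group, and for Lum AW112010 (r = 0.996), at under 1 CPM in each group.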
